A study of Homo sapiens with 9 samples.

Results

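The potassium, sodium and calcium channel subunits are 123 of the 58884 genes in the counts table, chosen by a rule on the gene symbol alone. They comprise the pore-forming and regulatory subunits of voltage-gated sodium channels (10 and 4 genes), the pore-forming alpha1, alpha2delta and beta subunits of voltage-gated calcium channels (10, 4 and 4), and the potassium channel families. The potassium channel genes are 30 voltage-gated alpha subunits, 10 electrically silent alpha subunits, 3 cytoplasmic beta subunits, 5 KCNE subunits, 15 tandem pore domain channels and 16 inward rectifiers. The others are 8 genes grouped by name as calcium- or sodium-activated channels, and 4 beta subunits of the large-conductance calcium-activated (BK) channel.

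RNA-seq was performed on the parental MDA-MB-231 line (Par), a claudin-low human breast cancer cell line, and on LM2 and BrM2, sub-populations of it that had been selected in mice for colonizing the lung and the brain. All 3 lines were untreated and were cultured alike as monolayers in DMEM with serum, outside the lung or brain. Each line is 1 cell population, and its 3 biological replicates were cultures harvested at different passages. The comparisons ask how far the channel genes differ between each metastatic sub-population and Par, and between the sub-populations.

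Channel proteins let ions pass the plasma membrane, and the balance of potassium, sodium and calcium conductances sets the membrane potential. Pore-forming subunits make the conducting channel, whereas auxiliary subunits change its opening, its place in the cell and its amount at the surface. Cells that fire no action potentials also use these channels, for volume regulation, calcium entry and migration. The transcript level of a subunit does not give the current it carries.

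The libraries held 14371858 to 24511786 counts on genes, with BrM2 replicate 1 the lowest. Levels are given as CPM, which are counts divided by TMM-normalized library size, and 3 counts in a library correspond to 0.112 to 0.219 CPM. The 4 claudin-low markers VIM, CD44, ZEB1 and FN1 were above 3 counts in all 9 libraries. Of the 8 luminal or epithelial markers, PGR reached no more than 0.176 CPM in any library. However, 4 of the 8 were above 3 counts in all libraries, namely ERBB2, EPCAM, CLDN4 and CLDN7, so these markers were not uniformly low. ERBB2 reached 145 CPM in Par, 126 in LM2 and 110 in BrM2. CLDN4 was at 71.9 to 109 CPM in Par, 4.47 to 8.03 in LM2 and 9.51 to 32.3 in BrM2. Of 10 neuron markers, RBFOX3, ELAVL4, STMN2 and SYN1 were at or under 3 counts in all libraries. Above 3 counts in all libraries were 5, among them GAD1 at 3.32 to 8.69 CPM and MAP2 at 1.24 to 6.41 CPM. The list summed to 10.9 to 14.1 CPM in Par, 15.9 to 23 in LM2 and 10.8 to 14.4 in BrM2. The 4 leukocyte markers summed to at most 0.264 CPM, the 4 endothelial ones to 6.82 to 13 CPM, and the 8 luminal or epithelial ones to 180 to 276 CPM in Par, 82.5 to 150 in LM2 and 91.6 to 170 in BrM2. Replicate 1 of every line stood apart from replicates 2 and 3, with 72.6% of the tested genes differing, so values are always listed in the order of replicates 1, 2 and 3.

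Part of the channel genes had no or few counts in the 3 lines. Of the 123 members, 100 had a count in at least 1 library, where 34056 of all 58884 genes did. No library had a count for 23 of the members. At or under 3 counts in every library were 55, and 27 were above 3 counts in all 9. More than 47.15 normalized counts in at least 1 library were reached by 23 of the 123 members and by 13055 of all 58884 genes. The genes with no count include 9 of the 30 voltage-gated potassium alpha subunits and 4 of the 15 tandem pore domain channels.

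Per length, the calcium-activated potassium channel KCNN4 had the highest level of the members, at an average of 19.9 CPM per kilobase of exon over the 9 libraries. KCNS3 averaged 4.08, KCNQ5 2.65, KCNK6 2.08 and CACNB1 1.55 CPM per kilobase. The lengths cover every annotated exon of a gene, so a gene with many annotated transcripts has a lower value per kilobase.

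**Figure D1:**
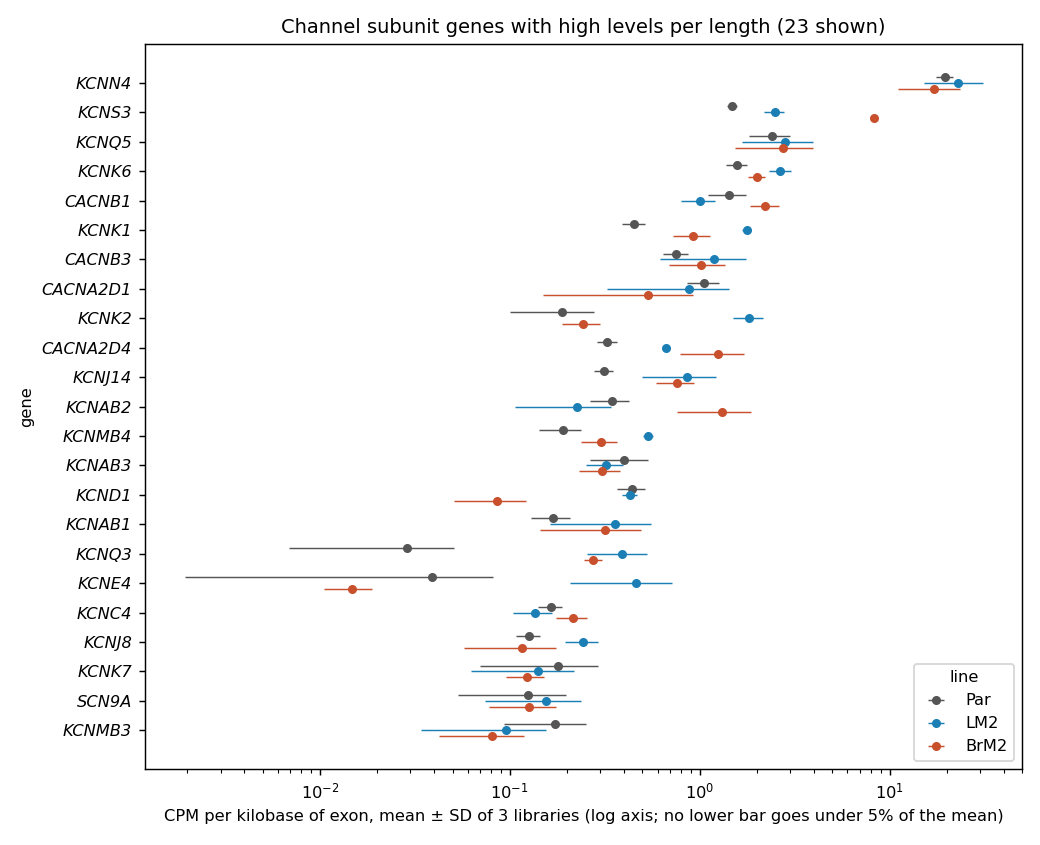
Level per length of 23 of the channel subunit genes with the highest means, in CPM per kilobase of exon on a log axis. Points are means and bars SDs of 3 libraries per line. KCNN4 is the uppermost gene, and KCNS3 is at 8.29 in BrM2 against 1.48 in Par.

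Differential expression was tested for the 23 members that passed the low-count filter, which asks for more than 47.15 normalized counts in at least 1 library. Of these 23, 13 reached that threshold in all 3 lines, 6 in 2 lines and 4 in 1 line, so that part of the tested genes entered through the line where they are high. An edgeR adjusted p is a p-value of its quasi-likelihood test, adjusted by Benjamini-Hochberg over all 13055 genes tested. The threshold is 0.05, and the same values with the replicate number as a block are given where they change a call. In a bulk sample, fewer cells that use a gene and less RNA per cell cannot be told apart.

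LM2 differed from Par in 8 of the 23 members, all 8 higher, where 8.69% of all tested genes passed, 4.17% higher and 4.52% lower. Of the 8, 6 did not reach the low-count threshold in Par, so they were tested through the lines where they are high. KCNE4, KCNK2 and KCNMB4 reached it in LM2 alone, and KCNQ3, KCNK1 and KCNJ14 in LM2 and BrM2. No member was lower in LM2 at an adjusted p under 0.05 in edgeR without the block or in DESeq2 with all libraries, and the count was also 0 at an unadjusted p under 0.05 in either. The median log2 fold change was 0.74 over the tested members and 0.01 over all tested genes. With the replicate block, edgeR called 14 members, 12 higher and 2 lower, against 34.5% of all genes. The count was 4 without Par replicate 1, 5 without Par replicate 2, 3 without Par replicate 3 and 5 without LM2 replicate 2. The libraries of LM2 and Par did not overlap in 10 members, against 24.8% of all genes.

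BrM2 differed from Par in 8 members, 6 higher and 2 lower, where 13.3% of all genes passed, 6.25% higher and 7.02% lower. In 5 of the 8, among them KCND1, KCNJ14, KCNK1 and KCNQ3, the lower line did not reach the low-count threshold. The median log2 fold change was 0.44 over the tested members and -0.02 over all genes. The count was 5 without Par replicate 2 and 5 without Par replicate 3. With the replicate block edgeR called 12 members, against 42.7% of all genes. The libraries of BrM2 and Par did not overlap in 11 members, against 31% of all genes.

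BrM2 differed from LM2 in 8 members, 3 higher and 5 lower, where 8.1% of all genes passed, 4.11% higher and 3.99% lower. The lower line did not reach the threshold in 4 of them, including KCND1, KCNE4 and KCNK2. The median log2 fold change was -0.29 over the tested members and -0.03 over all genes. With the replicate block edgeR called 13 members, against 37.5% of all genes. The count was 5 without BrM2 replicate 2 and 5 without BrM2 replicate 3. The libraries of the 2 sub-populations did not overlap in 12 members, against 22.9% of all genes.

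The number of called members depended on which replicates were kept. Without replicate 1 in any line, edgeR called 12 members in each comparison, against 33.1% of all genes for LM2 and Par, 40.4% for BrM2 and Par and 32.6% for BrM2 and LM2. Without replicate 2, it called 0, 2 and 0 members, against 0.536%, 1.22% and 0.406% of all genes, and 8, 9 and 8 members had an unadjusted p under 0.05. Without replicate 3, it called 0, 2 and 0 members, against 1.04%, 2.1% and 0.866%, and 9, 8 and 7 had an unadjusted p under 0.05. With all libraries DESeq2 called 10, 8 and 9 members, against 14.5%, 19.3% and 14% of all genes. With no low-count filter edgeR called 10, 14 and 12 of 100 members, against 4.4%, 6.36% and 4.25% of all genes.

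**Figure D2:**
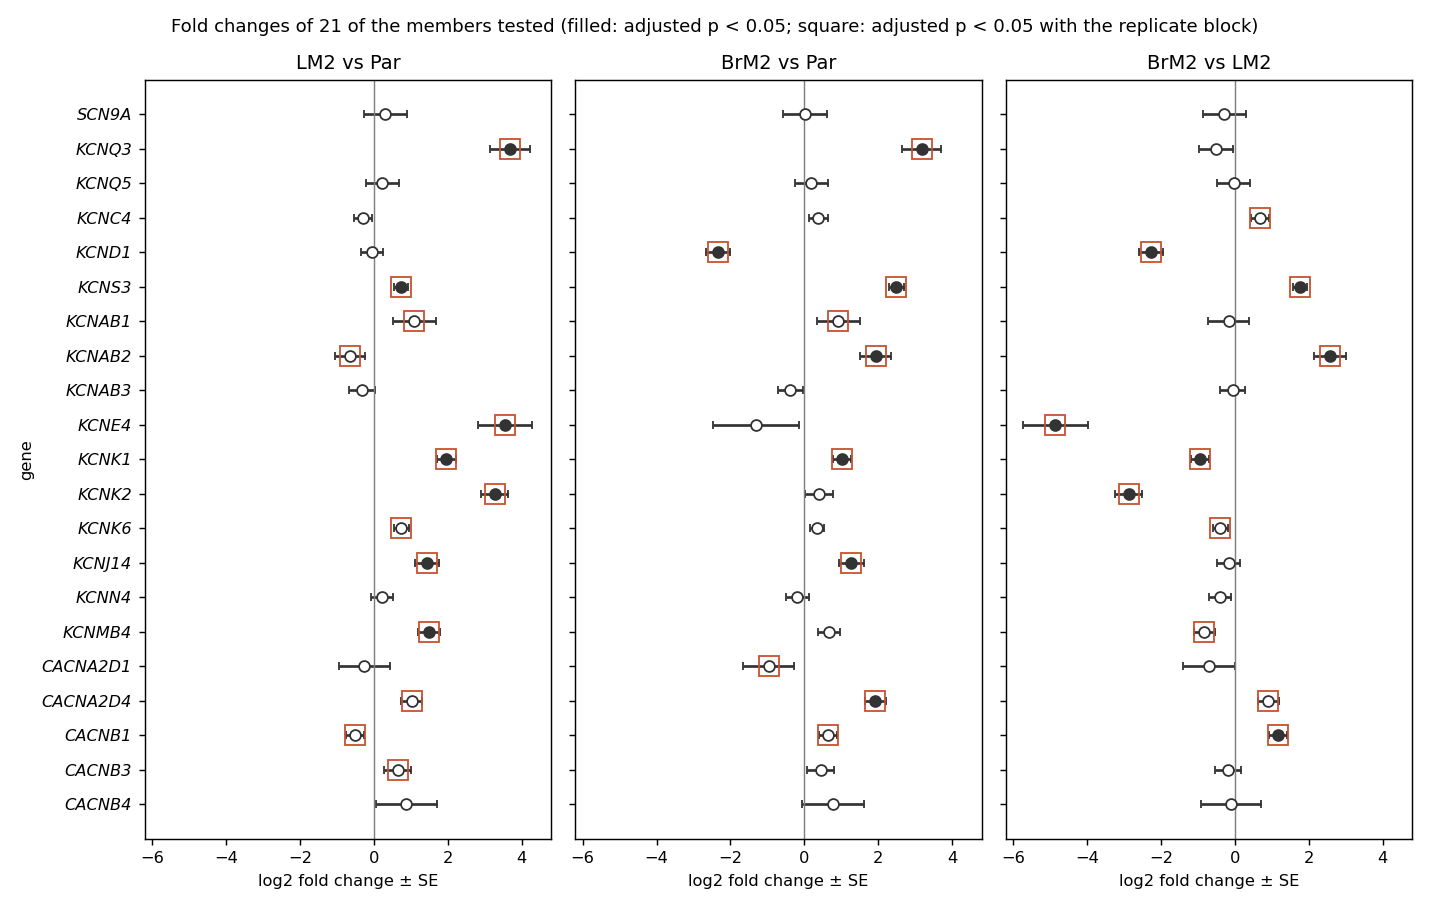
Log2 fold change ± SE of 21 of the tested members in each comparison, from edgeR without the block. Filled points passed an adjusted p of 0.05 and squares mark genes that passed it with the replicate block. All filled points of LM2 against Par lie above 0, whereas KCND1 lies below -2 in both BrM2 panels.

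SCN9A, a pore-forming sodium channel subunit known from sensory neurons, was at 1.74 ± 0.999 CPM in Par, 2.16 ± 1.13 in LM2 and 1.77 ± 0.68 in BrM2, and its edgeR adjusted p was 0.86, 0.99 and 0.85 in the 3 comparisons. SCN8A, a pore-forming subunit of central neurons, had no count in the Par libraries, 3 counts in each LM2 library, and 0, 7 and 4 counts in BrM2.

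The M-current channels KCNQ3 and KCNQ5, voltage-gated potassium channels that open slowly below the firing threshold of neurons, differed in pattern. KCNQ3 was at 0.107, 0.332 and 0.661 CPM in Par, 3.04, 6.29 and 5.58 CPM in LM2, and 3.28, 3.26 and 3.93 CPM in BrM2. Every Par library was below every library of the other lines, and the sub-populations overlapped. KCNQ3 was higher in LM2 by a log2 fold change of 3.68 ± 0.53 (edgeR adjusted p = 0.003) and in BrM2 by 3.17 ± 0.53 (edgeR adjusted p = 0.0046). It reached the low-count threshold in LM2 and BrM2 but not in Par, whose highest library had 17 counts. KCNQ5 was at 19.7, 29.5 and 32.3 CPM in Par, 17.5, 35.6 and 42.3 CPM in LM2, and 15.3, 40.5 and 37.5 CPM in BrM2. Its replicate 1 was the lowest library in each line, and the 3 lines overlapped (edgeR adjusted p = 0.87, 0.87 and 0.98).

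KCND1, a pore-forming subunit of fast transient potassium currents at chrX:48961380-48971844, was the voltage-gated potassium channel that fell in BrM2. It was at 2.29, 2.56 and 3.19 CPM in Par, 2.88, 2.42 and 2.55 CPM in LM2, and 0.365, 0.44 and 0.768 CPM in BrM2. The BrM2 libraries were all below the others, and Par and LM2 overlapped. KCND1 fell by 2.33 ± 0.33 on the log2 scale in BrM2 against Par (edgeR adjusted p = 0.0019) and by 2.27 ± 0.33 against LM2 (edgeR adjusted p = 0.0032). It reached the low-count threshold in Par and LM2, where it is high, but not in BrM2, whose libraries had 5, 10 and 16 counts. KCNC4, a subunit of rapidly activating channels, was at 4.31 ± 0.626 CPM in Par, 3.53 ± 0.819 in LM2 and 5.6 ± 1.05 in BrM2. Between BrM2 and LM2 its log2 fold change was 0.68 ± 0.25 (edgeR adjusted p = 0.16, 0.015 with the block, and 0.038 without replicate 1 of the 3 lines). KCNH1, a voltage-gated channel often studied in tumours, was below the filter at 8 to 28 counts per library over the 9 libraries.

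KCNS3 encodes an electrically silent alpha subunit that forms no channel alone and modifies other voltage-gated alpha subunits. It lies at chr2:17877847-17932958. KCNS3 was at 4.85, 4.7 and 4.31 CPM in Par, 8.29, 6.69 and 8.28 CPM in LM2, and 25.9, 24.6 and 27.2 CPM in BrM2. No line overlapped another. KCNS3 was 5.61-fold higher in BrM2 than in Par, with a log2 fold change of 2.49 ± 0.19 and an edgeR adjusted p of 0.00012. It was 3.34-fold higher in BrM2 than in LM2 (log2 fold change 1.75 ± 0.19, edgeR adjusted p = 0.00067). The LM2 difference from Par was 0.74 ± 0.19 (edgeR adjusted p = 0.042), and it was lost on leaving out any 1 of the 9 libraries (edgeR adjusted p between 0.051 and 0.15) and with no low-count filter (0.29).

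The cytoplasmic beta subunits bind voltage-gated potassium channels and share the fold of aldo-keto reductases. KCNAB2, at chr1:5992676-6101180, was at 7.09, 6.27 and 4.43 CPM in Par, 6.18, 2.38 and 3.07 CPM in LM2, and 33.4, 16.6 and 17.5 CPM in BrM2. Every BrM2 library was above the rest, with replicate 1 the highest of each line. KCNAB2 was 3.79-fold higher in BrM2 than in Par (log2 fold change 1.93 ± 0.42, edgeR adjusted p = 0.016). That call was lost without Par replicate 2 (edgeR adjusted p = 0.063) or Par replicate 3 (0.071). Against LM2 it was 5.8-fold higher (log2 fold change 2.56 ± 0.43, edgeR adjusted p = 0.0069). In LM2 its log2 fold change from Par was -0.64 ± 0.41 (edgeR adjusted p = 0.48, and 0.029 with the block). Its exons share 212 bases with NPHP4 on the opposite strand, and since the counted strand is not given, the 204 counts per library on KCNAB2 may hold reads of NPHP4, which had 304.

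KCNAB1 was at 0.852, 1.23 and 1.36 CPM in Par, 0.927, 2.98 and 3.41 CPM in LM2, and 0.803, 2.95 and 2.73 CPM in BrM2. Replicate 1 was the lowest in every line and made the lines overlap. Its log2 fold change was 1.09 ± 0.58 in LM2 (edgeR adjusted p = 0.36, and 0.02 with the block) and 0.92 ± 0.58 in BrM2 (edgeR adjusted p = 0.4, and 0.041 with the block). KCNAB3 did not pass in any comparison, with or without the block (edgeR adjusted p = 0.72, 0.59 and 0.96 without it).

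KCNE subunits are single-span proteins that tune KCNQ and other voltage-gated channels, and KCNE4 is known as an inhibitor of KCNQ1. The counts of KCNE4 were 6, 0 and 3 in Par, 53, 41 and 22 in LM2, and 1 in each BrM2 library. Only LM2 replicate 1 reached the low-count threshold, and no other library of any line did. None of the LM2 libraries overlapped the other lines. KCNE4 was higher in LM2 than in Par, at a log2 fold change of 3.55 ± 0.74 (edgeR adjusted p = 0.018), a call lost without Par replicate 3 (0.086) or LM2 replicate 2 (0.06). Between BrM2 and LM2 it fell by 4.86 ± 0.88 on the log2 scale (edgeR adjusted p = 0.01), lost without BrM2 replicate 2 (0.056) or BrM2 replicate 3 (0.06). As a ratio of counts it was 31.2-fold higher in LM2 than in BrM2, with a 95% counting interval of 10.4 to 154. The counts of KCNE3 were 6, 8 and 4 in Par, 13, 22 and 13 in LM2, and 1 in each BrM2 library. Its LM2 to BrM2 ratio was 12.9, with a counting interval of 4.16 to 64.8. KCNE3 was below the main filter, and it passed filterByExpr through the LM2 libraries, where it is high. Its edgeR adjusted p was then 0.005 between BrM2 and LM2 and 0.043 between BrM2 and Par, the latter 0.11 with no filter. Between LM2 and Par it was 0.11 after filterByExpr, and 0.029 with the block. KCNQ1 had at most 2 counts in a library.

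**Figure D3:**
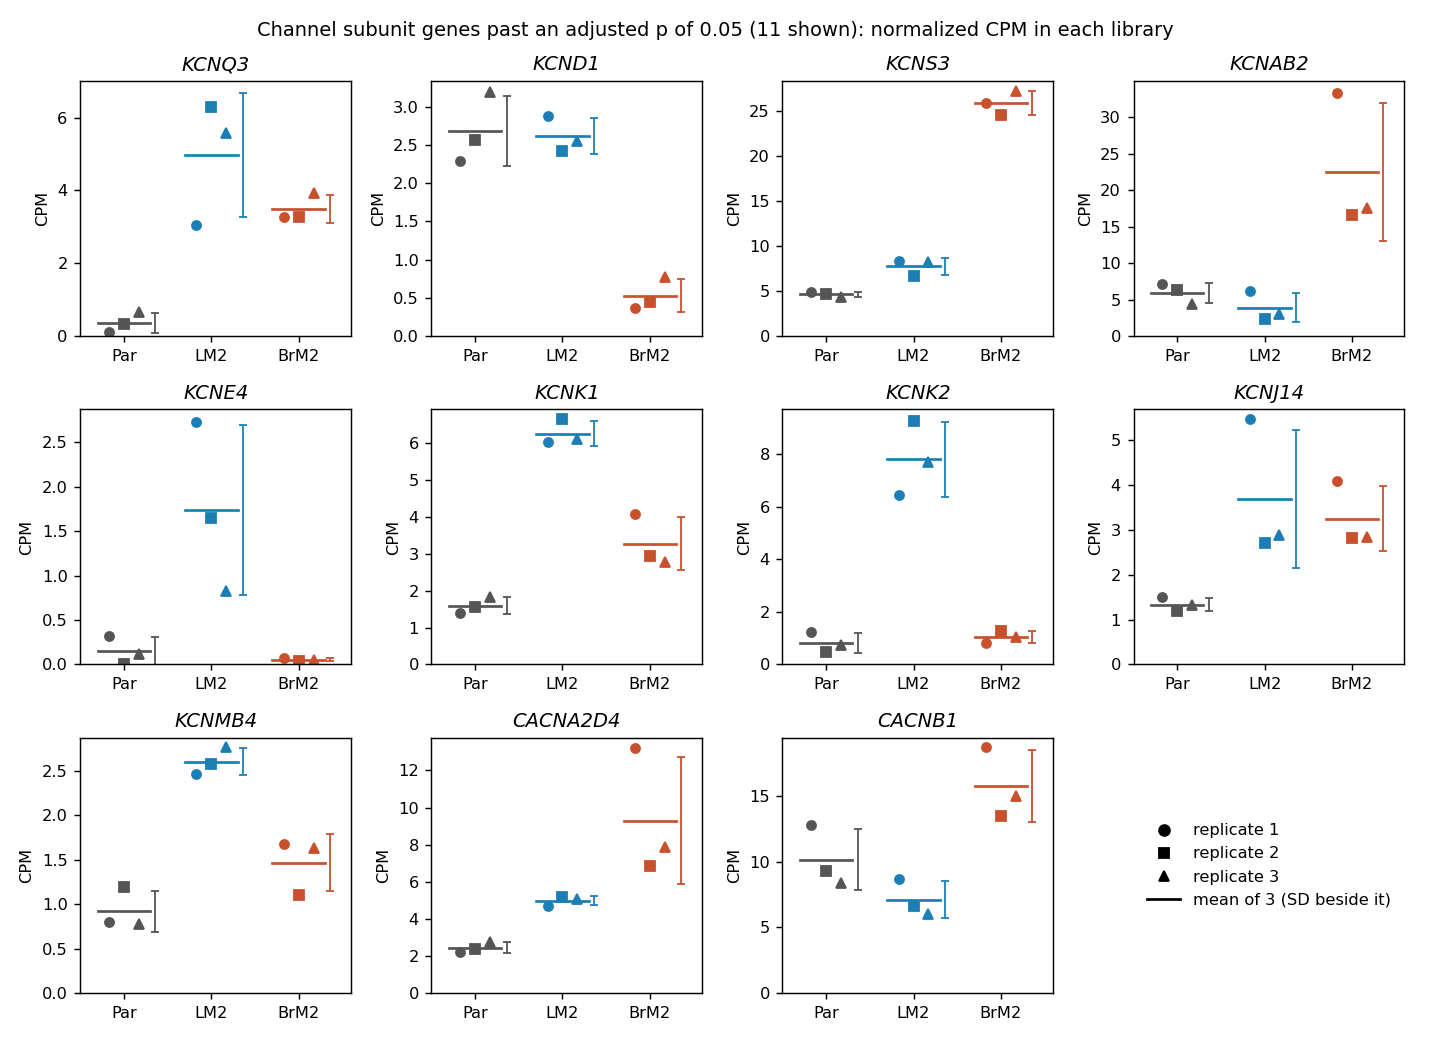
Normalized CPM of 11 of the members past an adjusted p of 0.05 in at least 1 comparison, 1 panel per gene with its own axis from 0. Symbols mark replicates 1, 2 and 3, lines the mean and bars the SD of 3 libraries. KCNS3 shows 3 separate groups, with 24.6 to 27.2 CPM in BrM2, and in KCNAB2, KCNJ14 and CACNA2D4 replicate 1 is the highest library of at least 1 metastatic sub-population.

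Tandem pore domain channels carry the background potassium leak that holds the membrane potential negative. KCNK1 and KCNK2 are shown here with their promoter windows, since both were higher in LM2 than in Par and both lie on chromosome 1, KCNK1 at chr1:233614106-233672514 and KCNK2 at chr1:215005542-215237090. Each window runs 5′ to 3′ from 250 bases before to 50 bases after the transcription start in RefSeq (GRCh38.p14). The KCNK1 window is chr1:233613856-233614155 and the KCNK2 window chr1:215005292-215005591, both on the plus strand, and KCNK2 has 2 such windows, of which the most upstream is printed. Capitals mark matches on either strand to the core promoter element TATAAA, the GC box GGGCGG, the upstream element CCAAT, the AP-1 site TGANTCA, and TTCAGCACC, the left part of the REST site.
KCNK1: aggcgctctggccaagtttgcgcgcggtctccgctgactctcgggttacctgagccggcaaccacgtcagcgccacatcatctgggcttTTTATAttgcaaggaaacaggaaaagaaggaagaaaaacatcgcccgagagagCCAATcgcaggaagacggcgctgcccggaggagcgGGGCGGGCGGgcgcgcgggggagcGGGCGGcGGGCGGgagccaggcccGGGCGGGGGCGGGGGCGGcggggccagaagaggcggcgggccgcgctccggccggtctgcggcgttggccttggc
KCNK2: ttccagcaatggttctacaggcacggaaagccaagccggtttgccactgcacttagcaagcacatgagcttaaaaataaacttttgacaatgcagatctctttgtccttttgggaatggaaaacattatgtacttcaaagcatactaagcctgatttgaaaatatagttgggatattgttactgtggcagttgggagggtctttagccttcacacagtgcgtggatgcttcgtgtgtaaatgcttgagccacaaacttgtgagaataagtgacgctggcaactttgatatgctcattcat
The KCNK1 window held 7 matches to the GC box, some overlapping each other, 1 to TATAAA and 1 to CCAAT, with a GC content of 70.7% and 38 CpG. The KCNK2 window held none of the 5 motifs, with a GC content of 42% and 5 CpG. Matches of different motifs did not overlap. Over 35116 windows of the same length, 45% held the GC box, 34.6% CCAAT, 11.5% TATAAA, 7.71% the AP-1 site and 0.376% the REST part. Over the 139 windows found for 91 of the channel genes, these shares were 51.1%, 33.8%, 7.91%, 7.19% and 1.44%.

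KCNK2, a leak channel gated by stretch and lipids, was at 1.23, 0.475 and 0.739 CPM in Par, 6.44, 9.27 and 7.72 CPM in LM2, and 0.803, 1.28 and 1.06 CPM in BrM2. The LM2 libraries were all above the others, and Par and BrM2 overlapped. KCNK2 was 9.6-fold higher in LM2 than in Par (log2 fold change 3.27 ± 0.37, edgeR adjusted p = 0.00091). In BrM2 it fell by 2.88 ± 0.36 on the log2 scale against LM2 (edgeR adjusted p = 0.0015). It reached the low-count threshold only in LM2.

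KCNK1, a weak inwardly rectifying leak channel, was at 1.39, 1.57 and 1.83 CPM in Par, 6.02, 6.65 and 6.11 CPM in LM2, and 4.09, 2.95 and 2.78 CPM in BrM2. No line overlapped another, with BrM2 between Par and LM2. KCNK1 was 3.93-fold higher in LM2 than in Par (log2 fold change 1.96 ± 0.25, edgeR adjusted p = 0.0016). In BrM2 it was 2.05-fold higher than in Par (log2 fold change 1.02 ± 0.25, edgeR adjusted p = 0.027). This call was lost without any 1 Par or BrM2 library or LM2 replicate 2, with an edgeR adjusted p between 0.051 and 0.097, and with no low-count filter (0.1). Between BrM2 and LM2 it fell by 0.94 ± 0.24 on the log2 scale (edgeR adjusted p = 0.047), which was lost on leaving out any 1 library except BrM2 replicate 1 (edgeR adjusted p between 0.054 and 0.2) and also with relative log expression factors (0.053), filterByExpr (0.056) or no filter (0.16).

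KCNK6, the tandem pore domain channel with the highest level per length, was at 9.48, 8.64 and 11.1 CPM in Par, 18.8, 14.7 and 15.7 CPM in LM2, and 12.2, 11.1 and 13.7 CPM in BrM2. Every LM2 library was above every Par and BrM2 library. Its log2 fold change in LM2 was 0.74 ± 0.2, with an edgeR adjusted p of 0.051, of 0.0028 with the block and of 0.049 with relative log expression factors. Between BrM2 and LM2 it was -0.4 ± 0.2, with an edgeR adjusted p of 0.29, and of 0.048 with the block. The family as a whole summed to 13.1 ± 1.45 CPM in Par, 32 ± 0.439 in LM2 and 18.7 ± 1.12 in BrM2.

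KCNJ14 was the single inward rectifier of 16 that passed the filter. Inward rectifiers pass potassium more easily into the cell than out of it. KCNJ14 was at 1.49, 1.19 and 1.32 CPM in Par, 5.46, 2.7 and 2.88 CPM in LM2, and 4.09, 2.82 and 2.83 CPM in BrM2. Every Par library was below the libraries of both sub-populations, where replicate 1 was the highest. KCNJ14 was higher in LM2 by a log2 fold change of 1.44 ± 0.33 (edgeR adjusted p = 0.027) and in BrM2 by 1.27 ± 0.33 (edgeR adjusted p = 0.034). The LM2 call was lost without Par replicate 1 (edgeR adjusted p = 0.075), Par replicate 2 (0.12) or Par replicate 3 (0.095). The BrM2 call was lost without any 1 Par or BrM2 library, with an edgeR adjusted p between 0.076 and 0.13. Its exons share 285 bases with GRWD1 on the same strand, which had 1875 counts per library against 57.3 for KCNJ14, so its counts are uncertain.

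Among the calcium-activated potassium channels, the intermediate-conductance channel KCNN4 was high in all lines, whereas the small-conductance channels KCNN2 and KCNN3 were above 3 counts in BrM2 libraries only. KCNN4, which draws the membrane potential down when intracellular calcium rises, was at 67.7, 61.3 and 55 CPM in Par, 100, 59.4 and 56.1 CPM in LM2, and 74.7, 37 and 49.2 CPM in BrM2. Replicate 1 was the highest library of each line, and the lines overlapped. Its edgeR adjusted p was 0.8, 0.79 and 0.53 in the 3 comparisons. The log2 fold changes were 0.21 ± 0.3, -0.19 ± 0.3 and -0.41 ± 0.3.

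The counts of KCNN2 were 3, 1 and 0 in Par, 0, 2 and 3 in LM2, and 25, 21 and 24 in BrM2. KCNN3 had no count in Par, 1, 1 and 0 in the LM2 libraries, and 7, 37 and 31 in those of BrM2. The BrM2 libraries of both genes were above all others, and both genes were below the low-count filter of the main test. As a ratio of counts scaled to library size, KCNN2 was 20-fold higher in BrM2 than in Par (95% counting interval 7.49 to 75.6) and 17.3-fold higher than in LM2 (7.09 to 55.1). KCNN3 was at least 8.66-fold higher in BrM2 than in Par, taking 3 counts per Par library as the floor. Against LM2 the KCNN3 ratio was 46.5, with a counting interval of 12.4 to 391. Both genes could pass edgeR's filterByExpr, used in place of the main filter, only through the BrM2 libraries, where they are high. After it the edgeR adjusted p of KCNN2 was 0.0066 against Par and 0.0097 against LM2. That of KCNN3 was 0.0033 against Par and 0.0078 against LM2. With this filter 8, 12 and 10 of 36 members were called in LM2 against Par, BrM2 against Par and BrM2 against LM2, where 8.3%, 13.2% and 8.14% of all genes were. The intervals cover counting error only.

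The promoter windows of these genes are printed because both were found in the same line. The KCNN2 window is chr5:114361820-114362119 on the plus strand and lies within the annotated span of the gene, chr5:114055978-114496496. The KCNN3 window is chr1:154870232-154870531 on the minus strand, the most upstream of 3. Capitals mark the same 5 motifs.
KCNN2: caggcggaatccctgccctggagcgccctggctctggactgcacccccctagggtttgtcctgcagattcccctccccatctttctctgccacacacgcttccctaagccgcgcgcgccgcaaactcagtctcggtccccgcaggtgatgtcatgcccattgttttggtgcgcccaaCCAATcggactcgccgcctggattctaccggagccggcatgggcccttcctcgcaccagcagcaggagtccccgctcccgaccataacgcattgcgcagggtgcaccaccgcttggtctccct
KCNN3: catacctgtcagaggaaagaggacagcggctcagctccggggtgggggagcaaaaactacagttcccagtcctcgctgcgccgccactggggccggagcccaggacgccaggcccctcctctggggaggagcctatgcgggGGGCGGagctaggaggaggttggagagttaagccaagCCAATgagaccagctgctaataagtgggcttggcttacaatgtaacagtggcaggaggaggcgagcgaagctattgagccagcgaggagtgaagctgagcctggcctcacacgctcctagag
Each window held 1 match to CCAAT, and the KCNN3 window also held 1 to the GC box. The GC content was 64.7% for KCNN2 and 61.7% for KCNN3, with 22 and 13 CpG, where the median over all windows was 58.7% and 14.

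**Figure D4:**
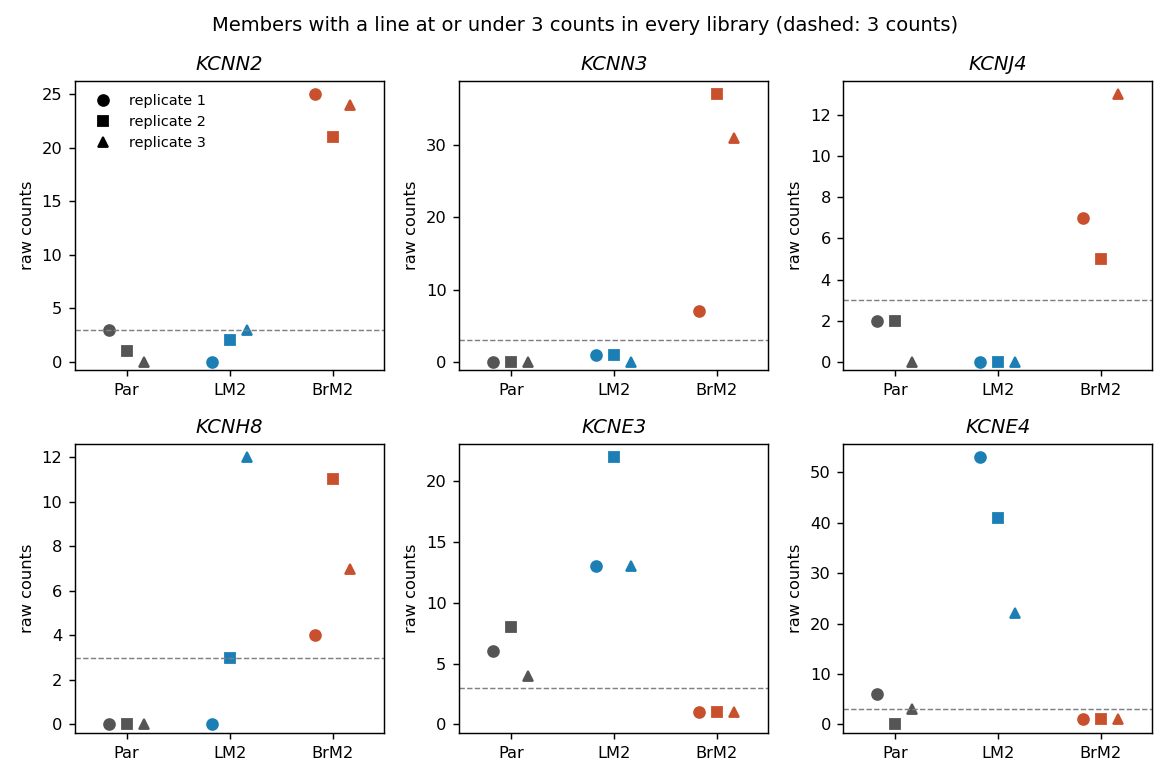
Raw counts per library of 6 members that were at or under 3 counts in every library of at least 1 line, with the dashed line at 3 counts. KCNN2, KCNN3 and KCNJ4 lie above the line in the BrM2 libraries and in no others, KCNE4 is highest in LM2, and KCNE3 and KCNE4 have 1 count in each BrM2 library.

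Other genes near the floor also separated the lines by counts. The inward rectifier KCNJ4 had 2, 2 and 0 counts in Par, none in LM2, and 7, 5 and 13 counts in BrM2. Its BrM2 level was 7.16 times that of Par (counting interval 2.47 to 28.3) and at least 3.49-fold higher than that of LM2. The voltage-gated channel KCNH8 had no count in Par, 0, 3 and 12 in LM2 and 4, 11 and 7 in BrM2, which was at least 2.65-fold higher than Par. KCNJ12, whose sequence is nearly identical to KCNJ18 and whose counts are therefore uncertain, had no count in Par, 4, 4 and 12 in LM2 (at least 1.95-fold higher) and 8, 0 and 4 in BrM2. KCNH3 had 4 to 8 counts in the Par libraries and 1 to 3 counts in BrM2, a ratio of 2.33 whose counting interval of 0.866 to 7.27 includes equal levels. Its counts are uncertain, since its exons share 43 bases with MCRS1 on the opposite strand, which had 2458 counts per library.

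The BK channel opens with calcium and voltage together. Its pore KCNMA1 was low, with counts of 8, 6 and 10 in Par, 11, 9 and 15 in LM2, and 4, 5 and 2 in BrM2. The beta subunit KCNMB4, which slows the gating of BK channels, was at 0.799, 1.19 and 0.777 CPM in Par, 2.47, 2.58 and 2.77 CPM in LM2, and 1.68, 1.1 and 1.63 CPM in BrM2. Every LM2 library was above all others, and Par and BrM2 overlapped. Only in LM2 did KCNMB4 reach the low-count threshold. It was 2.83-fold higher there than in Par (log2 fold change 1.49 ± 0.3, edgeR adjusted p = 0.014), a call lost without Par replicate 1 (edgeR adjusted p = 0.061), Par replicate 3 (0.07), LM2 replicate 2 (0.058) or LM2 replicate 3 (0.058). Between BrM2 and LM2 its log2 fold change was -0.83 ± 0.29 (edgeR adjusted p = 0.13, and 0.034 with the block).

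Voltage-gated calcium channels were represented by their auxiliary subunits. The 10 pore-forming alpha1 genes had no member past the filter, with a highest count of 13 in any library, and summed to 0.667 ± 0.0872 CPM in Par, 0.339 ± 0.16 in LM2 and 0.525 ± 0.156 in BrM2. That highest count was of CACNA1F, which had 8, 7 and 13 counts in Par, 2 counts in each LM2 library, and 2, 0 and 1 counts in BrM2. CACNA1F was 5.05-fold higher in Par than in LM2 (counting interval 2.05 to 14.9) and 8.15-fold higher than in BrM2 (2.52 to 41.9). CACNA1C, the main calcium channel of heart muscle, had no count in any library, and CACNA1H had 1 count in Par replicate 2 and none elsewhere. At this depth, 0 counts allow up to 0.112 to 0.219 CPM per library.

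The alpha2delta subunits bring calcium channels to the surface. CACNA2D4, at chr12:1791963-1918652, was at 2.18, 2.37 and 2.76 CPM in Par, 4.68, 5.16 and 5.09 CPM in LM2, and 13.2, 6.83 and 7.87 CPM in BrM2. No line overlapped another, and BrM2 replicate 1 was the highest library. CACNA2D4 was 3.81-fold higher in BrM2 than in Par (log2 fold change 1.92 ± 0.29, edgeR adjusted p = 0.0029). In LM2 its log2 fold change from Par was 1.02 ± 0.29 (edgeR adjusted p = 0.067, 0.011 with the block, and 0.017 in DESeq2). Between BrM2 and LM2 it was 0.9 ± 0.28 (edgeR adjusted p = 0.099, 0.017 with the block, and 0.042 in DESeq2). CACNA2D1, the target of gabapentin, was at 7.57, 11.2 and 10.4 CPM in Par, 2.32, 9.95 and 11.9 CPM in LM2, and 1.17, 8.23 and 5.37 CPM in BrM2. Replicate 1 was the lowest library in every line, and the lines overlapped. Its log2 fold change in BrM2 against Par was -0.97 ± 0.7 (edgeR adjusted p = 0.47, and 0.02 with the block). CACNA2D3 had no count in Par, 5, 4 and 4 in LM2 (at least 1.36-fold higher) and 0, 3 and 8 in BrM2.

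The beta subunits of calcium channels are cytoplasmic and aid the folding and trafficking of the pore. CACNB1, at chr17:39173453-39197669, was at 12.8, 9.31 and 8.4 CPM in Par, 8.7, 6.65 and 5.99 CPM in LM2, and 18.8, 13.5 and 15 CPM in BrM2. The BrM2 libraries were above all others, and Par and LM2 overlapped in replicate 1 of LM2. CACNB1 was 2.21-fold higher in BrM2 than in LM2 (log2 fold change 1.16 ± 0.25, edgeR adjusted p = 0.021). The call was lost without LM2 replicate 2 (edgeR adjusted p = 0.098), LM2 replicate 3 (0.093), BrM2 replicate 1 (0.058), BrM2 replicate 2 (0.051) or BrM2 replicate 3 (0.07). Against Par its log2 fold change was -0.52 ± 0.24 in LM2 (edgeR adjusted p = 0.28, and 0.02 with the block) and 0.63 ± 0.24 in BrM2 (edgeR adjusted p = 0.14, and 0.0046 with the block). CACNB3 was at 6.23, 4.61 and 5.29 CPM in Par, 13.2, 6.17 and 6.18 CPM in LM2, and 9.85, 5.11 and 6.96 CPM in BrM2. Its LM2 log2 fold change of 0.64 ± 0.36 passed with the block (edgeR adjusted p = 0.38, and 0.039 with it), and without replicate 1 of the 3 lines it was 0.32 ± 0.22 (edgeR adjusted p = 0.28). CACNB4 did not pass in any comparison.

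The replicate effect among the channel genes went with base composition, with exceptions. In the fit with the block, 6 of the 23 tested members were lower in replicate 1 than in replicates 2 and 3 and 8 were higher, where 72.6% of all genes differed. The lowest were CACNB4, at a log2 difference of -2.16, CACNA2D1 at -1.56, SCN9A at -1.48 and KCNAB1 at -1.46. The highest was KCNE4 at 1.25, although its GC content was 48.1%, followed by KCNAB2 at 0.83. The replicate difference rose with transcript GC content, with a Spearman rho of 0.76 over the 23 members and 0.82 over 12989 genes. These genes share their libraries and are no independent replicates. Among the genes called between lines, KCNS3, KCNK1, KCNK2, KCNMB4 and KCND1 differed by at most 0.18 in size between replicate 1 and the others.

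**Figure D5:**
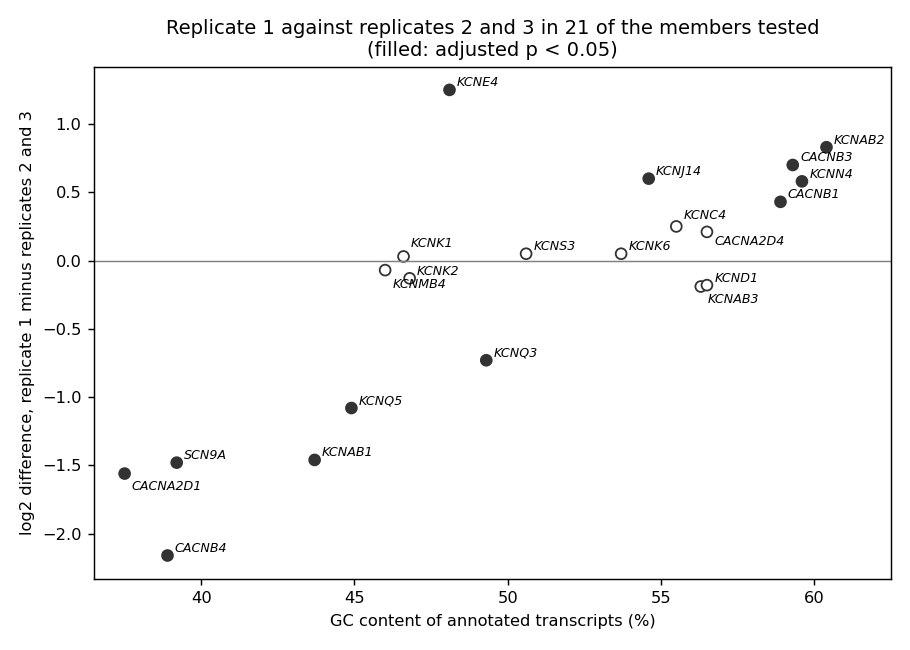
Log2 difference of replicate 1 from replicates 2 and 3 against the GC content of the annotated transcripts (%), for 21 of the tested members. Filled points passed an adjusted p of 0.05. CACNB4, CACNA2D1 and SCN9A lie below -1.4 at under 40% GC, and KCNAB2 is at 0.83 at 60.4% GC.

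Other genes of ion handling were called in both directions. Of 116 such genes outside the channel subunits, 60 passed the filter, and 5 were higher and 7 lower in LM2 than in Par, 6 higher and 5 lower in BrM2 than in Par, and 3 higher and 3 lower in BrM2 than in LM2. These are 20%, 18.3% and 10% of the 60, against 8.69%, 13.3% and 8.1% of all tested genes. With the block edgeR called 9 higher and 17 lower, 9 and 14, and 11 and 12. Their shares with the block were 43.3%, 38.3% and 38.3%, against 34.5%, 42.7% and 37.5% of all genes. Their median log2 fold changes were -0.03, 0 and 0.04. SCNN1A, the alpha subunit of the epithelial sodium channel, was at 56.5 ± 2.41 CPM in Par, 5.81 ± 2.44 in LM2 and 1.7 ± 0.429 in BrM2. Its log2 fold change was -3.30 ± 0.32 in LM2 (edgeR adjusted p = 0.00042) and -5.07 ± 0.35 in BrM2 (edgeR adjusted p = 7.7e-05). NEDD4L, a ubiquitin ligase that removes sodium channels from the membrane, was at 156 ± 3.05 CPM in Par, 268 ± 18.2 in LM2 and 381 ± 11.7 in BrM2. Its log2 fold change in BrM2 against Par was 1.29 ± 0.14 (edgeR adjusted p = 0.00051).

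The plasma membrane calcium pumps ATP2B2 and ATP2B4, which export calcium, both fell. ATP2B2 was at 3.91 ± 1.27 CPM in Par, 0.0172 ± 0.0297 in LM2 and 0.0294 ± 0.0508 in BrM2, with an edgeR adjusted p of 0.00067 in LM2 and 0.00067 in BrM2. It passed the low-count filter only through Par, where it is high. ATP2B4 was at 137 ± 11.7 CPM in Par and 48.3 ± 6.07 in BrM2 (log2 fold change -1.50 ± 0.17, edgeR adjusted p = 0.00063). HCN2, a pacemaker channel opened by hyperpolarization, was at 0.584 ± 0.137 CPM in Par, 6.92 ± 3.99 in LM2 and 0.965 ± 0.669 in BrM2. Its log2 fold change in LM2 against Par was 3.51 ± 0.59 (edgeR adjusted p = 0.0065). HCN2 passed the filter only through LM2, where it is high. CACNG7 and CACNG8 belong to the gamma subunit family and are known to regulate AMPA-type glutamate receptors. CACNG7 was at 1.27 ± 0.447 CPM in Par, 0.0634 ± 0.0775 in LM2 and 4.49 ± 1.46 in BrM2, and differed between BrM2 and LM2 with an edgeR adjusted p of 0.0009. CACNG8 was at 0.122 ± 0.0185 CPM in Par, 0.0575 ± 0.0607 in LM2 and 2.54 ± 1.18 in BrM2. In BrM2 it was higher than in LM2 (edgeR adjusted p = 0.0018) and than in Par (edgeR adjusted p = 0.0022). Both CACNG7 and CACNG8 passed the filter only through BrM2, where they are high. ATP1B1, the beta subunit of the sodium pump, was at 180 ± 7.02 CPM in Par, 84.1 ± 11.1 in LM2 and 180 ± 34.5 in BrM2, and was higher in BrM2 than in LM2 by a log2 fold change of 1.10 ± 0.20 (edgeR adjusted p = 0.011).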

How the data were processed

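The study generated RNA-seq data for Par, LM2 and BrM2 with 3 replicates each. Per the labels, the authors prepared stranded mRNA libraries. The authors used STAR (2.7.0 in the submitters' processing notes) on the paired reads, with hg38 as the genome, and deposited raw counts per gene, without normalization. The counted strand is not given in the sources used here. A second deposited table holds the authors' DESeq2 fold changes and p-values and was not used.

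The table had 58887 rows. Of 3 repeated identifiers, whose rows were identical, 1 row each was kept. A filter written after HTSFilter tried 100 thresholds on the largest normalized count and kept 13055 genes above 47.15, which hold 99.6% to 99.8% of the counts of each library. Counts were tested in edgeR 4.0.16 (R 4.3.3) with TMM normalization and the 2-sided quasi-likelihood test, in 1 model of the 3 lines over all 9 libraries, with Benjamini-Hochberg adjustment. An exact permutation test of 3 against 3 libraries cannot go below p = 0.1, so the adjusted p-values rest on the spread shared across genes. The fit was tested on simulated data. Alternatives were DESeq2 1.42.0, relative log expression factors, other low-count filters, the replicate number as a block, and leaving out libraries.

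Deviations of log2 CPM (prior count of 2) from the line means were correlated across genes. All 9 same-numbered pairs of libraries of different lines gave 0.23 to 0.90. Unlike-numbered pairs of replicates 2 and 3 reached up to 0.80, in LM2 replicate 3 with BrM2 replicate 2. Pairs of replicate 1 with replicates 2 and 3 were all negative. The correlations set replicate 1 apart, whereas the pairing of replicates 2 and 3 by number was assumed. Common dispersion was 0.11 with no block and 0.0207 with it. No 2 libraries of a line agreed within sampling noise.

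Ratios against a line with at most 3 counts in each library, and a count in at least 1, carry exact 95% counting intervals. A line with no count in any library was set to 3 counts per library. Exon length and GC content came from a GENCODE annotation on GRCh37 matched by gene identifier (122 of 123 genes), and positions and promoter windows from RefSeq on GRCh38.p14, matched by symbol (123 and 91 genes). The genes named are those called in any comparison, those called only with the block, the 10 highest per length, 10 much studied in breast cancer cells, and those with a line at or under 3 counts and another above 3 in every library. Of the ion handling lists, the 4 smallest adjusted p-values per comparison are named. KCNQ1, CACNB4 and KCNAB3 were added after their values were seen. Some genes that the rule selects are counted but not reported here by name or in the plots. Although the rule for members reads gene symbols alone, the members and lists were chosen with earlier results of these data known.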

Additional observations from a re-analysis of the deposited data

Results flagged for a closer look

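In 7 of the genes reported the change from Par differed between the sub-populations, tested as the difference of BrM2 from LM2 (edgeR's quasi-likelihood test, adjusted p under 0.05). KCNAB2, at a log2 fold change of 2.56, KCNS3 at 1.75 and CACNB1 at 1.16 were higher in BrM2, whereas KCNE4 at -4.86, KCNK2 at -2.88, KCND1 at -2.27 and KCNK1 at -0.94 were lower. KCNK1 and KCNS3 passed against Par in both sub-populations and in the same direction, CACNB1 passed against Par in neither, and the other 4 genes passed against Par in 1 sub-population. As given above, the calls of KCNK1, CACNB1 and KCNE4 between BrM2 and LM2 were lost on leaving out some single libraries. KCNE4, KCNK2 and KCND1 did not reach the low-count threshold in BrM2, so they were tested through lines where they are high. With 3 libraries per line, outlying single libraries were not sought.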

How the results depend on the processing

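None of the 39 fold changes of tested members that passed with or without the replicate block reversed its direction under any alternative. Of the 30 that passed in neither, 15 changed sign on leaving out 1 library, such as KCNN4 in LM2 against Par (0.21, and -0.07 to 0.35), and 0 did so with other settings of all libraries. All 24 calls of a gene in a comparison were also made with the replicate block, which called 39 and moved the number of genes from 8 to 14 for LM2 against Par and from 8 to 13 for BrM2 against LM2. Of the genes reported, its other changed calls stand beside each gene. Without the low-count filter, 14 of 100 members passed for BrM2 against Par. On leaving out 1 library, or 1 replicate number of all lines, the number of genes lay between 0 and 12 for LM2 against Par, 2 and 12 for BrM2 against Par, and 0 and 12 for BrM2 against LM2. The highest values were without replicate 1. Without replicate 2 or without replicate 3, edgeR called 0, 2 and 0, and an unadjusted p under 0.05 was reached by 8, 9 and 8 members without replicate 2 and by 9, 8 and 7 without replicate 3. No other tool was run there. These fits leave 2 libraries per line, of which 1 is replicate 1. Relative log expression factors gave 9, 8 and 7. The filterByExpr fit with the block was chosen after seeing the data. The depth limits statements on genes near 3 counts, which include most of the pore-forming calcium channel genes.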
